A study of Mus musculus with 6 samples.

Results

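Chemokines and secreted cytokines were examined as a group of genes in mouse embryonic fibroblasts (MEFs). Members were chosen by gene symbol. They were all genes named Ccl or Cxcl with a number, Cx3cl1, Xcl1 and 18 named cytokines, with 1 transcript per gene, the one with the highest mean. This gave 52 members among the 25043 genes that the transcripts of the table were matched to, with 34 chemokines and 18 other cytokines.

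RNA-Seq was performed on 3 WT and 3 Anp32e null (Anp32e-/-) MEF libraries, made from total RNA with a stranded kit. The cells were primary fibroblasts from embryos of either genotype, donated by another laboratory, kept below passage 8 in DMEM with 10% serum and antibiotics, and plated 1 day before RNA was isolated. The sources used here do not say whether the 3 libraries of a genotype came from separate embryos. Values were read only as the authors' mean over all 6 libraries, in normalized counts (reads divided by a size factor that evens out library depth), so levels are described and no comparison of the genotypes was made.

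Chemokines are small secreted proteins that guide migrating cells along a gradient by binding G protein-coupled receptors, and CC and CXC chemokines are named for the spacing of conserved cysteines. Secreted cytokines of the IL-6, IL-1 and colony stimulating factor families act on neighbouring cells through dedicated receptor chains. Fibroblasts are a known source of both, and many of these genes are induced by the transcription factor NF-kB when cells sense damage or infection.

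Of the 52 members, 28 were below 10 normalized counts, while Mif and Csf1 ranked among the most abundant genes of the cells. A mean of 10 normalized counts or more was found for 24 of 52 members (46.2%), against 56.9% of all 25043 genes. At least 1 read was found for 39 members (75%), against 77% of all genes, so the shares with any read were close. Members with reads had a median level at percentile 32.6 of the 19275 genes with reads. Their median was 28.1 normalized counts, compared with 350.2 over all genes with reads, in both cases without division by length. Only Mif and Csf1 lay above percentile 90. At the threshold, Il18 was the lowest member above it, with 13.4 normalized counts, and Ccl28 the highest below it, with 6.23. No read was found for 13 members, and a count of 0 over the 6 libraries allows a mean of up to 0.499 normalized counts by counting error alone. In bulk samples, a low level can come from few expressing cells or from little RNA per cell, and these cannot be told apart.

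**Figure D1:**
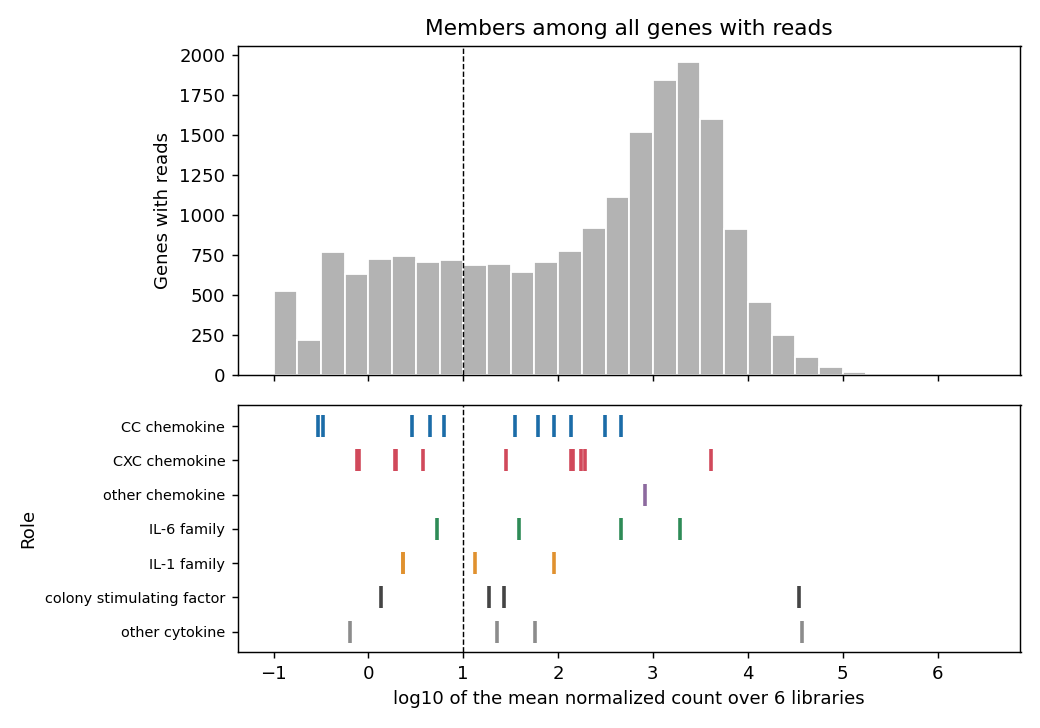
Top, number of genes with reads by log10 of the mean normalized count over 6 libraries; bottom, the 39 members with reads on the same axis by role, 1 mark per gene, with the dashed line at 10 normalized counts. Members spread over much of the range, with Mif and Csf1 far to the right of the rest.

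For low genes, the reads in each library could be read back. A mean over 6 libraries is a sum of whole reads times 6 fixed steps, and all 3623 distinct means up to 10 normalized counts in the table were met by exactly 1 set of whole reads. The same search was made for list genes and members with a mean up to 95. The 6 libraries are called a to f in order of falling size factor, from 1.13 to 0.909. They carry no group label here, so their values are given singly, were not averaged by genotype and were not tested. A set of reads was found for all 26 members with reads in this range, and 14 of these had reads in every library. Among those 14 were all 11 members with a mean between 10 and 100 normalized counts. The 13 members with higher means are given by their mean alone.

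Anp32e, the targeted gene, encodes a chaperone that removes the histone variant H2A.Z from chromatin. It lies on chromosome 3 from 95929245 to 95947387 (GRCm38) and had a mean of 2190 normalized counts over both genotypes. Its reads in single libraries could not be read back at this level, so it could not serve as a check of the labels. As reference points per kilobase of exon, Actb, a cytoskeletal actin, had 645175 normalized counts, the glycolytic enzyme Gapdh 52974 and the isomerase Ppia 42541.

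Among CC chemokines, the monocyte attractants Ccl2 and Ccl7 were the most abundant. They are neighbours on chromosome 11, Ccl2 from 82035577 to 82037452 and Ccl7 from 82045712 to 82047525. Ccl2 had 571 and Ccl7 390 normalized counts per kilobase of exon (464 and 312 before division by length). Ccl2 was thus 1.46 times as high as Ccl7 on this scale, but 0.974 times as high per kilobase of coding sequence, so their order depends on the length used. Together with 4 others they made up the 6 of 19 CC chemokines whose mean reached 10 normalized counts, against 56.9% of all genes. Ccl25, a ligand that draws lymphocytes to thymus and gut, had 130.4 normalized counts per kilobase. Its level is uncertain, because its exons share 204 bases with the opposite strand of Elavl1, an RNA-binding protein gene at 9169 normalized counts, and the counting is not stated to have used strand. Its 2 transcripts also differed, with 138 and 82.8 normalized counts.

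Ccl5, which attracts T cells and monocytes, had 115 normalized counts per kilobase. Its reads in libraries a to f were 103, 121, 19, 74, 35 and 27. Libraries a, b and d held more Ccl5 reads than c, e and f, with a lowest of 18.5 and a highest of 115.1 normalized counts. Ccl17, a ligand for T cells of the Th2 kind, had 68.8 normalized counts per kilobase and reads of 64, 56, 25, 46, 15 and 14 in the same order. Ccl9, a chemokine of mouse myeloid cells, had another order of libraries: its reads were 55, 66, 148, 50, 100 and 121, highest in c, f and e. Ccl9 had 30.3 normalized counts per kilobase.

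The other 13 CC chemokines were below 10 normalized counts. Ccl28 (6.23 normalized counts), Ccl20 (4.48) and Ccl6 (2.85) had between 17 and 39 reads in all. Of the 27 reads of Ccl20, 11 were in library c, which also held 11 of the 17 reads of Ccl6. Ccl1 and Ccl12 had 2 reads each. No read was found for Ccl3, Ccl4, Ccl8, Ccl11, Ccl19, Ccl22, Ccl24 and Ccl26, a group that holds ligands typical of activated leukocytes (Ccl3, Ccl4, Ccl22), of lymphoid stroma (Ccl19) and of eosinophil recruitment (Ccl11, Ccl24).

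Cxcl12, which retains stem cells and leukocytes in tissues and is a stromal product in many organs, was the leading CXC chemokine. It lies on chromosome 6 from 117168535 to 117181368 and had 727 normalized counts per kilobase of exon (4093 before division by length, percentile 86.2). With the transcript that gives the highest level per kilobase, Cxcl12 had 1867. It held 26.2% of the summed level per kilobase of all 34 chemokines, followed by Ccl2 with 20.6%, Ccl7 with 14.05% and Cx3cl1 with 9.04%. These 4 chemokines made up 69.9% of the sum, and the 11 lowest had no read. Cxcl12 led on all scales examined, but its share moved with the length used, up to 65.2% per kilobase of coding sequence, because the transcript that represents it has 5627 exonic and 357 coding bases. The order behind it moved as well: without division by length Cx3cl1 came second, with 831 normalized counts. Per kilobase of coding sequence Ccl7 (1073), Ccl2 (1046) and Ccl25 (870) came before Cx3cl1 (702). The place of Ccl25 rests on the choice of transcript: the one used had 138 normalized counts and 159 coding bases, and RefSeq lists it as non-coding. The protein-coding transcript of Ccl25 had 82.8 normalized counts and was not used for this order.

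A mean of 10 normalized counts or more was reached by 5 further CXC chemokines, thus by 6 of 13, against 56.9% of all genes. Cxcl1 and Cxcl5, which attract neutrophils, had 144.5 and 112 normalized counts per kilobase, and Cxcl10, which attracts activated T cells and is induced by interferon, had 132. Cxcl16, a membrane-bound chemokine and scavenger receptor, had 68.7. Its exons share 552 bases with the opposite strand of Zmynd15, which had 24.6 normalized counts, and those of Cxcl10 share 133 bases with Art3, which had 3.39. Cxcl14, an epithelial and stromal chemokine, had 15.4 normalized counts per kilobase and 32, 42, 21, 36, 17 and 23 reads in libraries a to f, with b highest and e lowest.

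The remaining CXC chemokines were at the limit of detection. Cxcl17 had 22 reads in all, Cxcl2 and Cxcl15 had 12 each, and Cxcl3 and Cxcl11 had 5 each. Of the 12 Cxcl2 reads, 7 were in library c. No read was found for Cxcl9 or Cxcl13. Cxcl2 and Cxcl3 are close relatives of Cxcl1 and bind the same neutrophil receptor, yet Cxcl1 was 82.3 times as high as Cxcl2 per kilobase.

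The promoters of Cxcl3, Cxcl1 and Cxcl2 are shown because these neighbours share sequence features and differ in level. The sequences are from RefSeq (GRCm38.p6), run 5′ to 3′ and end at the base before the annotated start. Capitals mark matches to the letters GGG, 3 bases of any kind and TTCC, a pattern bound by NF-kB (kappa B), and to TATAAA, the TATA box, each searched on both strands with overlapping matches kept. Cxcl3 is at chr5:90785981-90786100 on the plus strand, Cxcl1 at chr5:90891125-90891244 on the plus strand and Cxcl2 at chr5:90903779-90903898 on the plus strand.
Cxcl3: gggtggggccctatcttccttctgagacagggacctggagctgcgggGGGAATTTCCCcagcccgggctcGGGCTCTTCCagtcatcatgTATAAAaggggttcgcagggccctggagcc
Cxcl1: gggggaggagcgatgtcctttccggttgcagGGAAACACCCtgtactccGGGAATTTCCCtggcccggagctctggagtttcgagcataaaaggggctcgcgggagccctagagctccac
Cxcl2: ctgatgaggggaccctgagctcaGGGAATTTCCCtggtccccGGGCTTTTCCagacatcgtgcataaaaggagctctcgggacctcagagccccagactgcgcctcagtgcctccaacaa
Each of these 3 promoters had 3 kappa B matches, overlapping ones counted singly, and all of them held the run GGGAATTTCCC. The kappa B pattern, with any 3 bases in its middle, was found in 5.56% of the windows of all 32851 RefSeq promoters. The exact letters TATAAA were found in Cxcl3 and not in Cxcl1 or Cxcl2. Where Cxcl3 reads TATAAAAGG, the other promoters shown hold CATAAAAGG, which differs by 1 base. A match is a description of letters and shows no binding. The windows searched, from 250 bases before to 50 bases after the start, thus held this run for Cxcl1, with 138 normalized counts, and for Cxcl3 and Cxcl2, with 0.802 and 1.95, while the third match differed between them in letters and position.

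Promoter sequences were matched for 35 of the 52 members, as 40 promoters. The kappa B pattern was found in 12 of these 40 (30%), in 7 of the 18 promoters of 14 members at 10 normalized counts or more and in 5 of the 22 of 21 members below. TGANTCA, the AP-1 pattern, was found in 9 of 40, against 7.81% of all promoters. The letters GAAA, 2 bases of any kind and GAAA, the core of the interferon-stimulated response element (ISRE), were found in 3 of 40, against 3.44%. TATAAA was found in 16 of 40, in 5 of 18 for members at 10 or more and in 11 of 22 for those below, against 13.6% of all promoters. Shares are of promoters, and members can have several: 3 of the 7 promoters with the kappa B pattern at 10 or more are of Il1rn, and 2 of these overlap and hold the same site. Differences between these shares were not tested. Promoters of Ccl2, Ccl5, Ccl7, Ccl11, Ccl4, Ccl24, Ccl26, Cxcl5, Cxcl11, Cxcl16, Cxcl17, Clcf1, Osm, Il15, Il34, Csf3 and Tslp were not used here.

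Cxcl10 and Csf1 are shown as members with reads whose promoters hold these letters. In Cxcl10, at chr5:92348890-92349109 on the minus strand, capitals mark the ISRE core, then the kappa B pattern in 2 places, then TGANTCA. In Csf1, a stretch of the promoter at chr3:107760540-107760639 on the minus strand holds 1 match to the kappa B pattern, in capitals, that reads in the opposite direction.
Cxcl10: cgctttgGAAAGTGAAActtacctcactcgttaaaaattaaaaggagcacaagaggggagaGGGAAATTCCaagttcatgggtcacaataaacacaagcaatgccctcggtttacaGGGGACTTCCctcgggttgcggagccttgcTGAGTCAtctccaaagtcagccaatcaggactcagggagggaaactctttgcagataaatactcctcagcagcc
Csf1: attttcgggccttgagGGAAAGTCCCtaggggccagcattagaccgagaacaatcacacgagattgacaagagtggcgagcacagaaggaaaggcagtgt
Cxcl10 was the 1 member among the 40 promoters with matches to the kappa B, AP-1 and ISRE patterns alike. Its neighbours Cxcl9 and Cxcl11, also interferon-induced, had 0 and 5 reads.

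Cx3cl1, a membrane-bound chemokine that can be shed, had 251 normalized counts per kilobase of exon (831 before division by length). It lies on chromosome 8 from 94772180 to 94782427. Xcl1, a product of activated lymphocytes, had no read.

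Neighbouring chemokine genes had very different levels. With a gap of at most 200 kb between starts, 28 members fell into 8 clusters, and in the 5 clusters with at least 3 members the level was held by 1 or 2 of them. On chromosome 11, Ccl2 and Ccl7 were followed by Ccl11, Ccl12, Ccl8 and Ccl1 within 144 kb, with 0.643 normalized counts per kilobase or less. In the next cluster, Ccl5 and Ccl9 had reads in all libraries, Ccl6 had 17 reads in all, and Ccl3 and Ccl4 had none. On chromosome 5, Cxcl5, Cxcl3, Cxcl15, Cxcl1 and Cxcl2 lay in this order within 147 kb. Cxcl5 was 141.8 times as high per kilobase as Cxcl3, which starts 26.8 kb away. Cxcl10 lay between Cxcl9 and Cxcl11 within 42.0 kb and held nearly all reads of the 3. On chromosome 8, Cx3cl1 and Ccl17 had reads and Ccl22, which starts 26.5 kb from Cx3cl1, had none. Of the pairs, Lif had reads and Osm none, Il1a had 14 reads and Il1b none, and neither Ccl24 nor Ccl26 had a read.

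**Figure D2:**
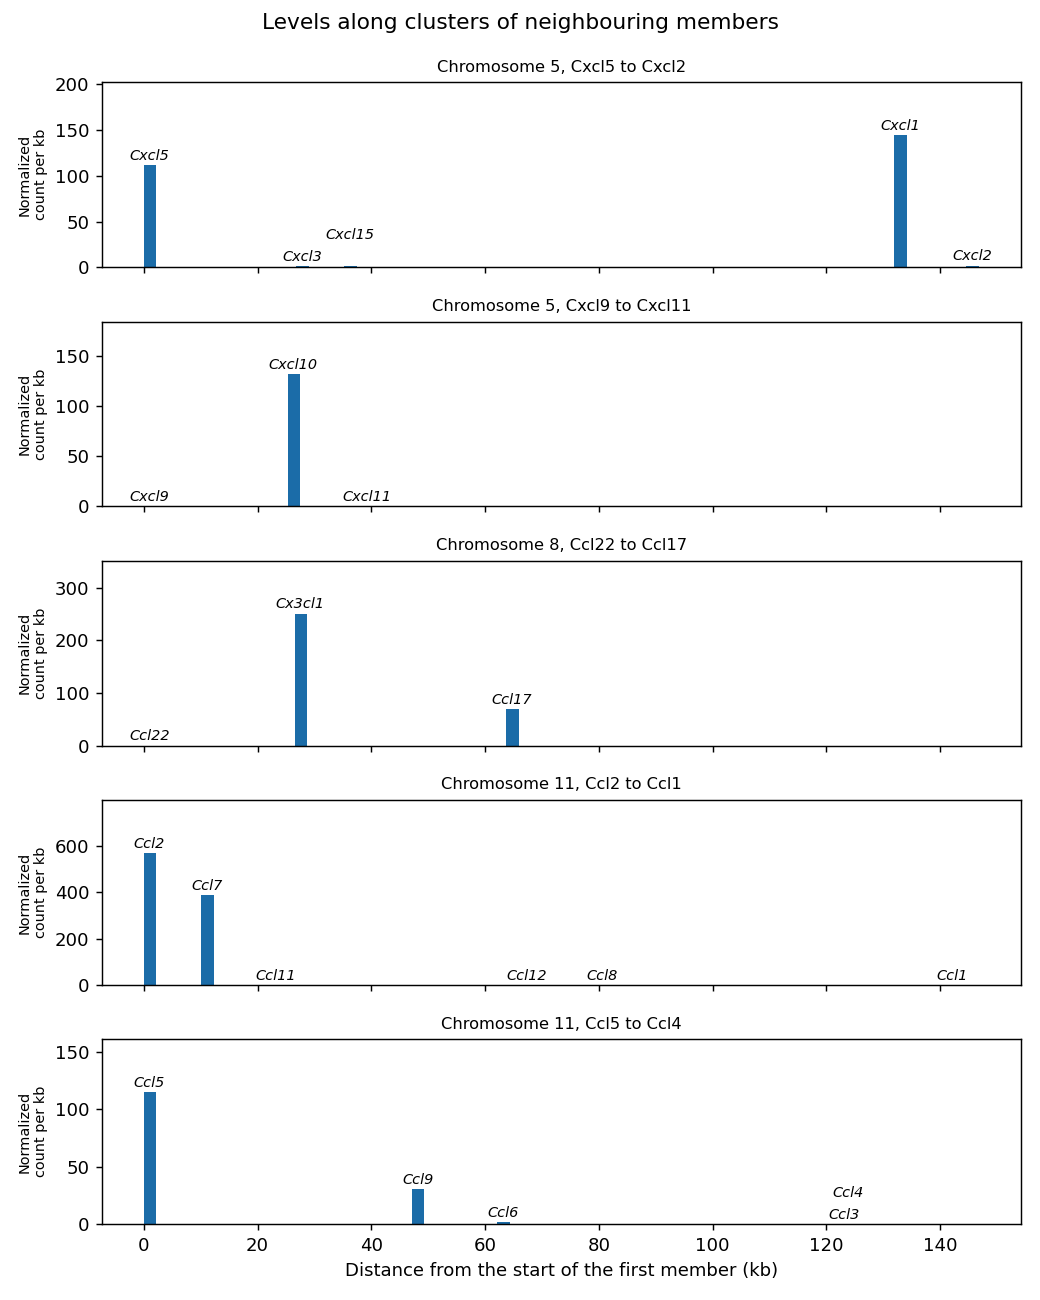
Mean normalized count over 6 libraries per kilobase of exon (bars) by distance in kb from the start of the first member, for the 5 clusters with at least 3 members. Each panel has its own vertical axis, and 1 or 2 members hold nearly all of the level in each cluster.

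Of the IL-6 family, which signals through the shared receptor chain gp130, Clcf1 was the most abundant. Clcf1, a neurotrophic cytokine, lies on chromosome 19 from 4214238 to 4223505 and had 1050 normalized counts per kilobase of exon (1940 before division by length). It shares 311 exonic bases on the same strand with another GENCODE gene model, and reads from these bases cannot be told apart. Lif, which maintains stem cells and is a product of many fibroblasts, had 122 normalized counts per kilobase. Clcf1 was thus 8.62 times as high as Lif, or 2.94 times as high per kilobase of coding sequence. Il11, a cytokine linked to fibroblast activation, had 39.4 normalized counts per kilobase. Its reads in libraries a to f were 69, 66, 26, 56, 4 and 22, and the highest library was 14.7 times as high as the lowest in normalized counts. Il6 had 33 reads in all (5.31 normalized counts) and between 2 and 10 in every library. Osm, a product of leukocytes, had no read.

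Of the IL-1 family, the antagonist was detected more than the agonists. Il1rn, which encodes the antagonist of the IL-1 receptor, had 37.0 normalized counts per kilobase of exon, or 125 with the transcript that gives the highest level per kilobase. Its reads in libraries a to f were 43, 24, 133, 49, 145 and 140. Libraries c, e and f each held at least 133 reads, and a, b and d at most 49. Il18 had 15.6 normalized counts per kilobase and reads of 16, 18, 5, 33, 6 and 4, highest in library d. The alarmins Il1a and Il33 had 14 and 15 reads in all, and Il1b had none. Il1rn was 31.7 times as high as Il1a per kilobase of exon, 67.5 times per kilobase of coding sequence and 107.6 times with the transcripts highest per kilobase. The level of Il1a is uncertain, since its exons share 222 bases with the opposite strand of Gm14023, which had 2.28 normalized counts against 2.30 for Il1a.

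Colony stimulating factors were dominated by Csf1, which drives survival and growth of macrophages. Csf1 lies on chromosome 3 from 107741048 to 107760469 and had 8310 normalized counts per kilobase of exon (34703 before division by length, percentile 99.1). For comparison, the collagen gene Col1a1 had 4408 on the same scale. The 3 Csf1 transcripts ranged from 19409 to 34703 normalized counts. Il34, the other ligand of the same receptor, had 15.6 normalized counts per kilobase, so that Csf1 was 531 times as high. Il34 had 41, 44, 14, 27, 17 and 21 reads in libraries a to f. Csf3, which drives neutrophil production, had 13.3 normalized counts per kilobase and 24, 31, 8, 17, 20 and 14 reads. Csf2 had 9 reads in all, of which 6 were in library a and 3 in library c. The exons of Il34 share 22 and 75 bases, and those of Csf2 96 bases, with antisense genes on the opposite strand.

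Of the remaining cytokines, Mif had the highest level of all members. Mif, a factor that limits macrophage migration and is made by most cells, lies on chromosome 10 from 75859353 to 75860277. It had 68874 normalized counts per kilobase of exon (37468 before division by length), 8.29 times as many as Csf1, or 5.18 times per kilobase of coding sequence. This value is uncertain, since processed pseudogenes resemble the gene (2 are named for it in GENCODE) and the treatment of reads with several matches was not examined here. Tslp, an epithelial and stromal cytokine that acts on dendritic cells, had 50.8 normalized counts per kilobase, with reads of 69, 85, 41, 49, 51 and 52. Tslp was the most even of the 11 members read back by library at 10 or more, with a ratio of highest to lowest of 2.03. Il15, needed for natural killer cells, had 18.3 normalized counts per kilobase and reads of 48, 25, 20, 38, 9 and 3. Tnf had 4 reads, all in library b.

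**Figure D3:**
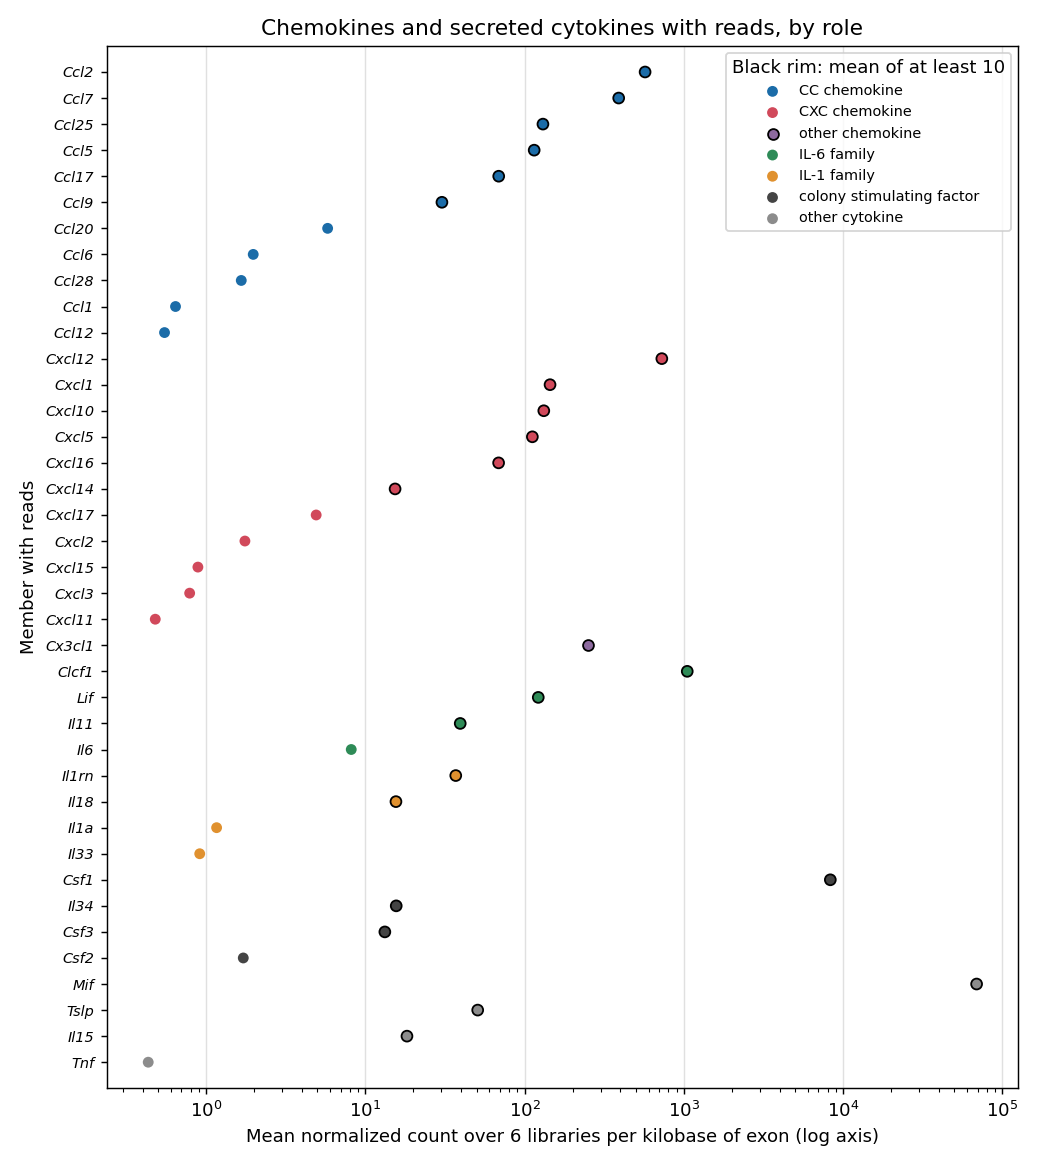
Mean normalized count over 6 libraries per kilobase of exon (log axis) for the 39 members with reads, ordered by role and level; a black rim marks the 24 members whose mean reached 10 normalized counts. Mif and Csf1 have the highest levels, Clcf1 and Cxcl12 follow, and the 13 members with no read are not drawn.

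Across the 11 members with a mean between 10 and 100, the highest library was between 2.03 and 14.7 times as high as the lowest in normalized counts, with a median of 3.79. Counting error alone is largest for the lowest of these, such as Il18 with 82 reads in all. The library with the highest value was not the same for all of them: it was e for Il1rn, c for Ccl9, b for Ccl5 and d for Il18. The 3 highest libraries were a, b and d for 7 of the 11 members and c, e and f for 2. These sets were read from the same values and not tested. Cdh1, an epithelial cadherin among the cell type markers, had 9, 4, 152, 6, 105 and 113 reads in libraries a to f, high in the same 3 libraries as Il1rn and Ccl9. Of the other epithelial markers, Krt8 had 10, 26, 30, 33, 38 and 21 reads, Epcam had 1, 7, 4, 0, 17 and 1, Krt5 had 7 in all, and Krt18 was too abundant to be read back by library. The part of other cell types in these differences was not tested.

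**Figure D4:**
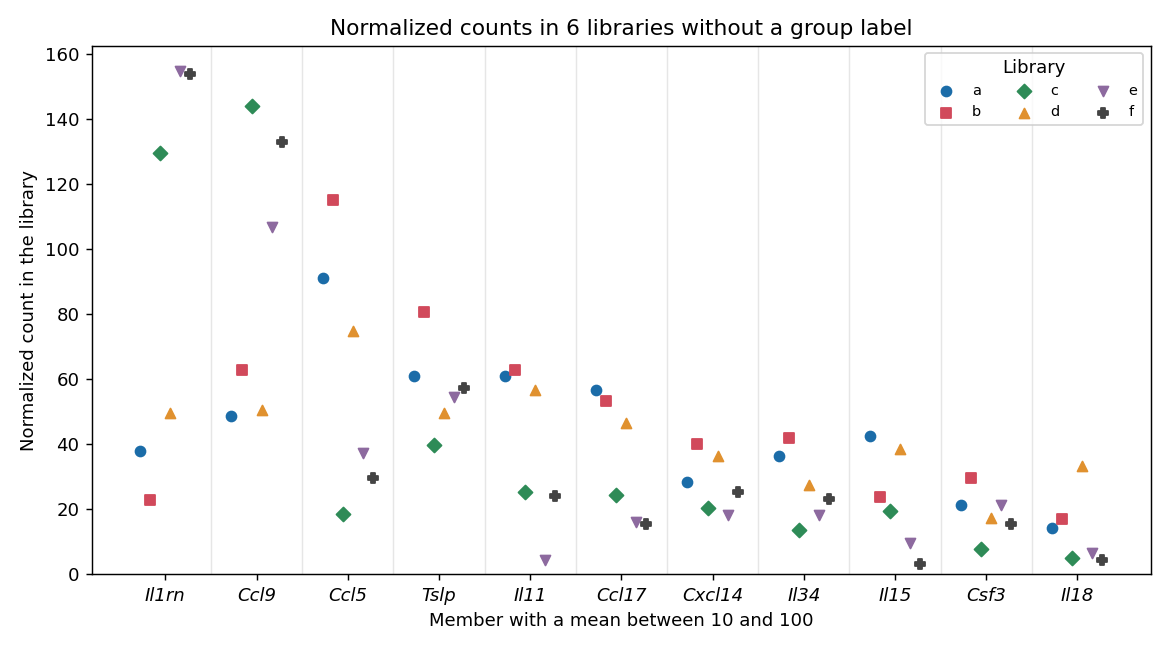
Normalized counts in each of the 6 libraries, which carry no group label, for the 11 members with a mean between 10 and 100; 1 symbol per library. The order of the libraries differs between members, with Il1rn highest in e and f and Ccl5 highest in b.

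Most receptors for chemokines were below the threshold. Of 17 chemokine receptors, 12 had reads and 5 reached 10 normalized counts, against 56.9% of all genes, and their highest was Ccr10 with 20.2. Xcr1 had 17.8, Cxcr4 14.6, Cx3cr1 14.5 and Cxcr6 11.7 normalized counts. Cxcr5 had 8.94 and Ccr9 1.59, and the other 10 were below 1. No read was found for Ccr2, Ccr3, Ccr8, Cxcr1 and Cxcr3, and Ccr1, Ccr4, Ccr6, Ccr7 and Cxcr2 had 1 or 2 reads each. Set beside their ligands per kilobase of exon, Ccl2 had 571 normalized counts and its receptor Ccr2 none, Cxcl12 had 727 and Cxcr4 8.07, and Cx3cl1 had 251 and Cx3cr1 3.86. Cxcl1 and Cxcl5 had 144.5 and 112 on this scale and their receptor Cxcr2 had 0.113. In these pairs of an abundant ligand the ligand was higher than the receptor. Other pairs went the other way. Xcl1 and Cxcl13 had no read, while Xcr1 and Cxcr5 had 4.01 and 3.42 normalized counts per kilobase. Ccl28 had 1.66 against 11.7 for its receptor Ccr10. Per kilobase of coding sequence these 2 were close, with 16.0 and 18.6. Exons shared with other genes were searched for members only, so this source of reads was not examined for the receptors.

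Among 5 atypical receptors, which take up chemokines without G protein signalling, Ackr4 and Ackr3 had 55.0 and 54.6 normalized counts. Ackr3, which binds Cxcl12, had 42, 27, 54, 31, 87 and 80 reads in libraries a to f, whereas Ackr4, which binds Ccl25 and other homeostatic ligands, had 110, 71, 33, 63, 30 and 34. Ackr3 was thus highest in library e and Ackr4 in library a. Ackr1 had no read, and Ackr2 and Ccrl2 had 3 reads each.

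Most cytokine receptors were present at higher levels, and 21 of 25 reached 10 normalized counts, against 56.9% of all genes. Their median was 159.5 normalized counts, compared with 0.324 for chemokine receptors. The 4 below 10 were Il18r1 (4.23), Il1r2 (2.28), Csf3r (0.784) and Il7r, which had no read. The hyaluronan receptor Cd44, a co-receptor for Mif, had 24591 normalized counts before division by length and 4380 per kilobase, or 17330 with the transcript that gives the highest level per kilobase, and Cd74, the other Mif receptor chain, had 12.9 per kilobase. Il1rl1, the gene of the Il33 receptor, had 8838 normalized counts per kilobase, or 19319 with the transcript highest per kilobase, while Il33 had 0.913. Each Il1rl1 value is of 1 of its 3 transcripts, the first with 1011 coding bases. Whether these transcripts encode the membrane-bound receptor was not examined. Tnfrsf1a, the main Tnf receptor, had 1397 normalized counts per kilobase and Tnfrsf1b 495, against 0.434 for Tnf.

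The opposite order was found for Csf1, with 8310 normalized counts per kilobase, and its receptor Csf1r, with 10.4. Csf1r reads in libraries a to f were 25, 31, 51, 26, 53 and 51. Csf3r had 5 reads in all. For Csf2, the receptor chains Csf2ra and Csf2rb had 54.2 and 2.82 normalized counts per kilobase.

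Chains used by the IL-6 family were present throughout. Per kilobase of exon, the shared chain Il6st had 854 normalized counts, Osmr 517, Il11ra1 920, Lifr 91.0, Il6ra 15.1 and Cntfr 8.73; with the transcript highest per kilobase, Lifr had 257 and Il6ra 39.0. Osmr was therefore present although its ligand Osm had no read. In the IL-1 family, Il1rap had 427 and Il1r1 153 normalized counts per kilobase, while the decoy Il1r2 had 1.09. The chains for Il18 were uneven, with 82.3 for Il18rap and 1.02 for Il18r1. Crlf2, a receptor chain of Tslp, had 441 normalized counts per kilobase, and its partner Il7r had no read. Il15ra and Il2rg, used by Il15, had 98.2 and 15.9, and Ptprz1, a receptor of Il34, had 9.92; with the transcript highest per kilobase, Il15ra had 171.5 and Ptprz1 15.4.

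All 13 genes of the NF-kB list exceeded 100 normalized counts, a level reached by 46% of all genes. The 8 most abundant before division by length were Rela, Nfkb2, Nfkb1, Nfkbia, Ikbkg, Chuk, Nfkbib and Ikbkb. The subunits Rela, Nfkb2 and Nfkb1 had 1947, 1231 and 899.7 normalized counts per kilobase of exon. The inhibitors Nfkbia and Nfkbib, which hold NF-kB in the cytoplasm, had 1744 and 754 on the same scale (1244 for Nfkbib with the transcript highest per kilobase), and the kinase subunits Chuk, Ikbkb and Ikbkg had 664, 366 and 356 (737 for Ikbkg with the transcript highest per kilobase).

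Of 8 genes that process or release cytokines, 6 reached 10 normalized counts. Mmp2, which cleaves Ccl7 and Cxcl12, had 2038 normalized counts per kilobase of exon, the protease Furin 1323, and the sheddases Adam10 and Adam17, which release Cx3cl1 and Tnf, 599 and 448 (723 for Adam17 with the transcript highest per kilobase). Gsdmd, of the inflammasome pathway, had 89.4 normalized counts per kilobase. The 2 genes below 10, named after their values were seen, were Casp1, which matures Il1b and Il18 and had 1 read in all, and Dpp4, which trims Cxcl12 and had 6. Over all 5 lists, 47 of 68 receptor and pathway genes reached 10 normalized counts, a level reached by 56.9% of all genes.

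Cell type markers were examined to see which cells the libraries held. Fibroblast markers were present, with 8 of 9 at 10 normalized counts or more, against 56.9% of all genes. Their summed level was 397106 normalized counts, of which Vim had 330695. Lum, a marker of many fibroblasts, had 8 reads in all. Macrophage markers summed to 319.97 normalized counts over 9 genes, of which Cd68 had 257, Csf1r 40.1 and Cx3cr1 14.5. The other 6 were below 10 normalized counts. Of these, Ptprc, found on all leukocytes, had 19 reads in all, Adgre1 and C1qa had 1 each, Lyz2 had 10, Itgam 13 and Aif1 6. Of the 5 T cell markers matched, Lck had 37.3 normalized counts, Cd4 11 reads and Cd8a 1 read in all, and Cd3e and Cd3g had none.

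Markers of other lineages were present in part. All 4 mesothelial markers had a mean over 100 normalized counts, a level reached by 46% of all genes. Upk3b had 605, Msln 381, Wt1 300.3 and Lrrn4 109. They lay at percentiles 55.5, 50.8, 48.5 and 40.9 of genes with reads. Krt18 was the most abundant of 5 epithelial markers, with 1106 normalized counts, and Epcam had 30 reads in all. Kdr, an endothelial receptor, had 2958 normalized counts, but Pecam1 and Cdh5 had 27 and 21 reads and Emcn none, and Tek had 34.4 normalized counts. Of 5 neutrophil and mast cell markers, S100a8 had 36.2 and Ly6g 16.1 normalized counts, Kit had 17 reads and S100a9 and Cpa3 had none. Mesothelial transcripts were thus present beside those of fibroblasts. The part of other cell types in the levels of chemokines and cytokines was not tested.

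**Figure D5:**
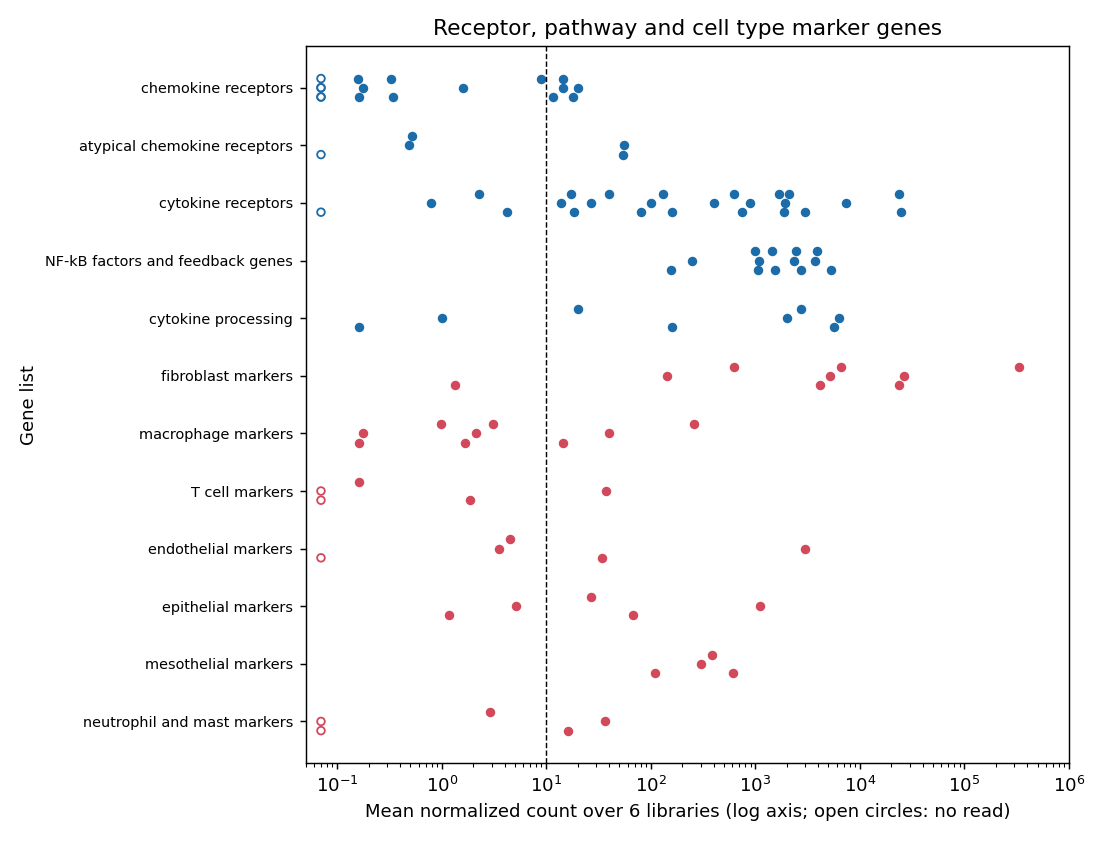
Mean normalized count over 6 libraries (log axis, not divided by length) for each gene of the receptor and pathway lists (blue) and the cell type markers (red); open circles are genes with no read and the dashed line is at 10 normalized counts. Chemokine receptors sit mostly to the left of the line and NF-kB genes all to its right.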

How the data were processed

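Alignment to mm10 (STAR), counting on RefSeq transcripts (featureCounts of Subread) and normalization (DESeq2) were done by the authors. The paper states default settings for counting and normalization. Both Il6 transcripts had 5.31 normalized counts, so reads shared by transcripts of a gene appear to have been counted for each. The exact counting settings are therefore not known. The deposited table holds 42361 transcripts. Its signal column, the authors' mean over 6 libraries of counts divided by size factors, was the only one used. The 5 other columns hold the authors' comparison of Anp32e null with WT (log2 fold change, its standard error, test statistic, p-value and adjusted p-value) and were not used. A comparison planned for counts per library was not run.

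RefSeq annotation of GRCm38.p6 placed 42203 transcripts in genes. Exonic and coding lengths were those of matching GENCODE M21 transcripts, present for all 52 members; where the representing transcript had none, as for Cxcl16, the next highest with a length was used. Means up to 95, given to 15 digits, were solved for whole reads within 0.75 units of the 15th digit. On simulated means made from known reads, 12 of 12 were solved rightly. These were drawn around levels below those of Il1rn and Ccl9, whose reads this check does not cover. Total counts per library are unknown, and no SD can be given for a pooled mean. Members with at least 100 normalized counts were described singly, those between 10 and 100 by value and lower ones by reads; of each receptor and pathway list, up to 8 genes with at least 100 and every receptor of a member were named. The motif search, the 200 kb clusters and the promoters shown were chosen after values were seen. Of the listed genes, 1 is not reported here and was left out of the counts. Members and lists were chosen with earlier results of these data known. Python 3.11.15, numpy 2.4.6, pandas 2.3.3, scipy 1.17.1 and matplotlib 3.10.9 were used.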

Additional observations from a re-analysis of the deposited data

How the results depend on the processing

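The counts of members and of pathway genes stayed within 1.5 times their main value under every alternative tried: 34 and 17 members at thresholds of 1 and 50 normalized counts, 24 with the longest transcript of each gene, 25 with Ccl27a and other lettered copies included, and 52 pathway genes at a threshold of 1. With a tolerance 10 times wider, 12 of the 14 members with reads in every library still had 1 set of reads; Il1rn and Ccl9 then had more. The median percentile of members with reads was 27.5 among coding transcripts alone, 48.1 with genes without reads kept and 32.2 per kilobase. Their median level was 18.3 normalized counts per kilobase of exon and 93.0 per kilobase of coding sequence. The share of Cxcl12 in the summed chemokine level was 60.8% without division by length and, in alternatives chosen after seeing the data, 65.2% with coding length and 47.7% with the transcript highest per kilobase.

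Ratios between members were also computed with coding length or the transcript highest per kilobase, chosen after seeing the data. Of 17 such alternatives for 11 ratios, 15 kept their direction; Ccl2 over Ccl7 went to 0.974 and Ccl5 over Ccl9 to 0.90 with coding length. No paired analysis was possible because the result comes from no test and the libraries carry no label in the table. Pooled means give no spread between replicates, so differences between members are given without an error. For the 26 members with reads that were read back, values by library exist but mix unlabelled genotypes. No error of a difference was computed from them. Members without a read are undetected at this depth, not shown to be absent.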

Other observations

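Several receptor and marker genes read back by library had their highest values in libraries c, e and f, as did Il1rn, Ccl9 and Cdh1; the 6 libraries carry no label, and the sets of libraries named here were read from the same values and not tested. S100a8, a calcium-binding protein of neutrophils and epithelia, had 18, 20, 48, 19, 49 and 58 reads in libraries a to f, and Ly6g had 3, 6, 25, 6, 17 and 36. Cxcr4 had 10, 10, 19, 6, 21 and 20. Il2rg, with 54, 35, 16, 45, 5 and 11 reads, and Xcr1, with 21, 29, 12, 25, 11 and 11, had their highest counts in a, b and d, as did Ccl5, Ccl17, Il11, Il15, Il18, Il34 and Cxcl14. Transcripts with 1 read in all also differed in number between libraries, with 187, 141, 150, 221, 64 and 96 in a to f. Csf3 had its highest values in b, e and a, and Tslp in b, a and f. Ccr10, with 21, 22, 19, 24, 17 and 19 reads, was nearly even.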
